A study of Arabidopsis thaliana with 17 samples.

Results

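The 24 nt siRNAs of flowers were compared between NRPD1-3xF CYC-AAAA, an Arabidopsis line with a mutated docking motif in the largest subunit of RNA polymerase IV (Pol IV), and the nrpd1-3 null mutant, which lacks that subunit. The comparison asks how close the motif variant comes to a plant without Pol IV, and where it stays above it. Its libraries were taken by their genotype labels, with earlier results of these data known, and it uses 4 of the 12 libraries in the deposited table, 2 biological replicates of each genotype, and all 12,939 siRNA clusters of that table. Both genotypes carry the nrpd1-3 T-DNA allele, and the CYC-AAAA plants also carry NRPD1 fused to a triple FLAG tag under the native NRPD1 promoter, with the YPMF residues of the motif changed to alanine. The nrpd1-3 null plants carry no transgene, so that the transgene itself and the mutated protein it encodes cannot be told apart in this comparison. The other groups of the table are Col-0 wild type, nrpd1-3 plants with the intact tagged protein (NRPD1-3xF WT), nrpd1-3 plants with the CYC residues of the motif changed to alanine (NRPD1-3xF AAA-YPMF), and the clsy quad mutant, which lacks all 4 CLASSY proteins, each with 2 libraries. Whether the 2 CYC-AAAA libraries come from one transgenic line is not given in the sources used here.

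Pol IV transcribes transposons and repeats, RDR2 copies its short transcripts into double-stranded RNA, and DCL3 cuts these into 24 nt siRNAs. The siRNAs are loaded onto AGO4 and related proteins and guide DNA methylation together with Pol V. Pol IV reaches its sites through the CLASSY proteins. The 4 family members divide the genome: siRNAs of the arms rely largely on CLSY1, CLSY2 and their partner SHH1, whereas those from repeats flanking the centromeres rely largely on CLSY3 and CLSY4. The CYC-YPMF motif lies in the clamp head of NRPD1.

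The codons of the motif are shown because they are what distinguishes the CYC-AAAA protein from the intact one. NRPD1 (AT1G63020) is read from the minus strand of chromosome 1, and the motif was found once in its 1453 residues, from residue 118 to residue 132. It is split between exon 5 (chr1:23360501-23360515) and exon 6 (chr1:23360384-23360413) in TAIR10.1, the RefSeq assembly. Codons of the YPMF residues are in capitals, and the changes to alanine are Y127A, P128A, M130A and F132A, with residues counted from the first methionine.
NRPD1 exon 5: tgtagatactgcact
NRPD1 exon 6: ttgaataccggtTATCCTctaATGaagTTT

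Both genotypes had lost nearly all 24 nt siRNAs, and CYC-AAAA kept slightly more than the null. Levels are RPKM of 24 nt reads, which divides reads by cluster length and by the filtered reads of all lengths, and are given with 2 decimals. At 12,591 clusters (97.3%), all 4 libraries were under 1 RPKM. The CYC-AAAA libraries were listed at 0 at 35.9% and 36.3% of the clusters, and the nrpd1-3 null libraries at 63.0% and 55.3%. At least 0.1 and under 1 RPKM was found at 39.2% and 38.1% of the clusters in CYC-AAAA and at 20.8% and 24.5% in the null. The median of a cluster's mean level was 0.075 RPKM in CYC-AAAA and 0.02 RPKM in the null. The CYC-AAAA libraries were also deeper, with 19347938 and 20405818 filtered reads against 14199917 and 17675172 in the null, and the part of depth in the share of clusters at 0 was not tested. RPKM divides by depth, but both CYC-AAAA libraries were deeper than both null libraries. Depth and genotype therefore cannot be told apart, and the part of depth in the sums below was not tested either.

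**Figure D1:**
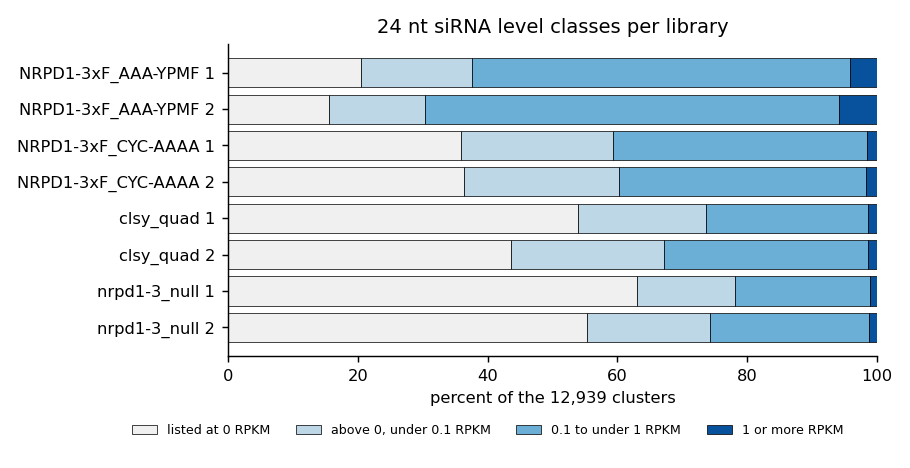
Share of the 12,939 clusters (x axis, percent) in 4 classes of 24 nt siRNA level, for each library of the 4 mutant genotypes (y axis, genotype and replicate number). The 2 CYC-AAAA libraries have 35.9% and 36.3% of clusters at 0, fewer than either nrpd1-3 null library (63.0% and 55.3%) and more than either AAA-YPMF library (20.5% and 15.6%).

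To measure residual siRNAs without the loci that do not need the CLSY proteins, 126 clusters were set aside at which clsy quad kept at least 10% of the Col-0 wild type level, together with merged_3_16157970, described below. The other 12,812 are called Pol IV-dependent clusters here, and the choice does not use the CYC-AAAA or null libraries other than at that single cluster. The name thus rests on clsy quad and not on loss in the null. The null kept at least 10% of the Col-0 wild type level at 158 clusters, of which 107 were among the 126. Some clusters of the set therefore kept siRNAs without Pol IV. Summed over them, the RPKM of the CYC-AAAA libraries was 0.535% and 0.538% of the NRPD1-3xF WT mean, and that of the nrpd1-3 null libraries 0.288% and 0.341%. The genotype means were 0.536% ± 0.00222 (SD, n = 2) and 0.315% ± 0.0377, and CYC-AAAA held 1.70 times the null sum. Both CYC-AAAA libraries were above both null libraries, but a two-sided exact permutation test over 4 libraries gives p = 0.333, the smallest it can give. AAA-YPMF kept 1.02% and 1.26%, and clsy quad 0.337% and 0.432%, a value that the choice of clusters holds down. With merged_3_16157970 included, the CYC-AAAA sum was 158% of the null sum instead of 170%, and with each library scaled to its 21 nt reads it was 176%. Over all clusters, where the microRNA cluster beside MIR163 holds most of the reads, the CYC-AAAA sum was 111% of the null sum, between 101% and 123% when each library was left out in turn.

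Cluster by cluster, both CYC-AAAA libraries were above both null libraries at 3,587 clusters (27.7%) and below them at 552 (4.27%). The null was at 0 in both libraries at 1,497 of the 3,587, and above 0 in both at 1,232. Over all clusters, at least 1 null library was at 0 at 9,593. The CYC-AAAA libraries were the deeper ones, and the part of depth in these counts was not tested. The differences were small: the median over all clusters of the log2(RPKM + 1) difference was 0.04, with quartiles of 0 and 0.12. It exceeded 0.5 upward at 262 clusters and downward at 48, and it exceeded 1 upward at 14 and downward at 6. For scale, the 2 CYC-AAAA libraries differed from each other by more than 1 at 26 clusters and the 2 null libraries at 25, while a CYC-AAAA and a null library differed by that much at 45 to 51 clusters.

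limma fitted to log2(RPKM + 1) of the 4 libraries called 0 clusters higher (0%) and 0 lower (0%) at a 2-fold change and an adjusted p under 0.01. At an unadjusted p under 0.05 it placed 1,576 clusters (12.2%) higher in CYC-AAAA and 117 (0.904%) lower. The smallest adjusted p from limma was 0.0160, shared by 52 clusters with a log2 difference of 0.03, among them clusters at 0.02 RPKM in both CYC-AAAA libraries and 0 in both null libraries. A count of 0 says little here, since the same fit called 0 of 200 planted changes on simulated data of these levels. The reads behind the values allowed a second test, chosen after seeing the data. The smallest cluster length that turned the values of all 12 libraries into whole reads was used. At 9,970 clusters (77.1%) it was unlikely to fit by chance, and 1,865 of these had at least 10 reads over the 4 libraries. The next length that fit was longer by a median factor of 2, so the recovered reads are the fewest that the values allow. On these reads limma-voom called 49 clusters (2.63%) higher in CYC-AAAA and 2 (0.107%) lower, at the same thresholds, and placed 417 (22.4%) higher and 17 (0.912%) lower at an unadjusted p under 0.05. In simulated reads it called 20.4% of 2-fold, 59.3% of 4-fold and 73.6% of 8-fold changes, with 1 false call. The simulation set a fixed spread between replicates that was not estimated from these libraries. It therefore does not give the share of false calls among the 49.
The number called higher depended on the libraries: it was 2 without nrpd1-3 null replicate 1, 5 without nrpd1-3 null replicate 2, 139 without CYC-AAAA replicate 1 and 118 without CYC-AAAA replicate 2. The number called lower was 1, 0, 12 and 10 in the same order.

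As a ratio and as percent of NRPD1-3xF WT, CYC-AAAA stayed furthest above the null around the centromeres. Bins of 1 Mb with under 100 protein-coding genes in TAIR10.1 are called gene-poor, and these were the 15 bins next to the centromeres of the 5 chromosomes, with 3,720 Pol IV-dependent clusters. The summed RPKM there was 0.749% and 0.797% of NRPD1-3xF WT in the CYC-AAAA libraries, and 0.265% and 0.300% in the null libraries. In the 9,078 gene-rich clusters it was 0.497% and 0.493% in CYC-AAAA, and 0.292% and 0.348% in the null. The CYC-AAAA sum was thus 274% of the null sum in gene-poor bins and 155% in gene-rich bins. The level itself was not higher in gene-poor clusters. Its median there was 0.04 RPKM in CYC-AAAA and 0 in the null, against 0.09 and 0.035 RPKM in gene-rich clusters. The remaining 14 clusters are mitochondrial, with a ratio of 1.11.
Within a library, the gene-poor percentage divided by the gene-rich percentage was 1.51 and 1.62 in CYC-AAAA and 0.910 and 0.861 in the null. The same ratio was 1.67 and 1.61 in AAA-YPMF and 0.835 and 0.781 in clsy quad. With NRPD1-3xF WT as the reference, libraries of both motif variants were above 1 and those of the null and clsy quad below 1. Between CYC-AAAA and the null, the exact permutation test of this ratio gives the smallest p that 4 libraries allow, 0.333 (two-sided). The side of 1 depends on that reference. As percent of Col-0 wild type, every mutant library was higher in gene-poor than in gene-rich clusters. The null then had 0.329% and 0.371% against 0.257% and 0.307%. On the same reference, CYC-AAAA had 0.927% and 0.988% against 0.438% and 0.434%, and clsy quad 0.357% and 0.432% against 0.304% and 0.393%.

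**Figure D2:**
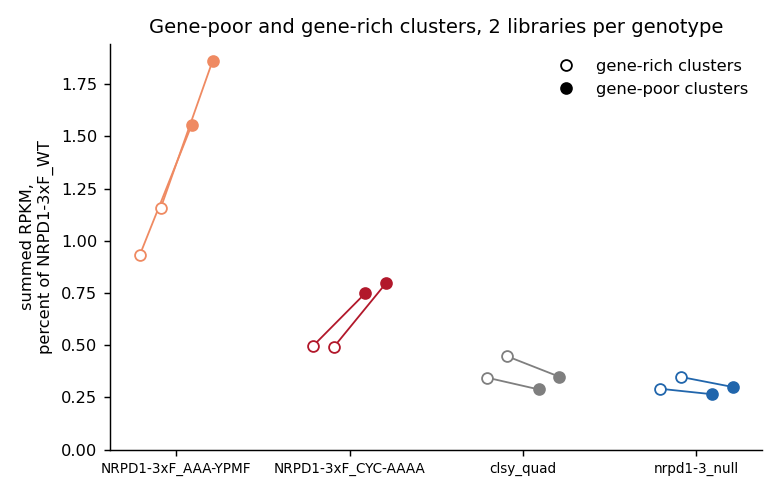
Summed RPKM of the gene-rich (open points) and gene-poor (filled points) Pol IV-dependent clusters as percent of NRPD1-3xF WT (y axis), with a line joining the points of each library. On this reference CYC-AAAA rises from 0.497% and 0.493% to 0.749% and 0.797%, whereas the nrpd1-3 null falls from 0.292% and 0.348% to 0.265% and 0.300%. As percent of Col-0 wild type, not drawn, the null rises from 0.257% and 0.307% to 0.329% and 0.371%.

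The pattern was the same on each chromosome. In gene-poor bins the CYC-AAAA sum was 2.89 times the null sum on chromosome 1, 2.84 times on chromosome 2, 2.62 times on chromosome 3, 3.34 times on chromosome 4 and 2.43 times on chromosome 5. In gene-rich bins these ratios were between 1.48 on chromosomes 1 and 5 and 1.72 on chromosome 2. The mean level of CYC-AAAA was higher in all 15 gene-poor bins, with ratios from 2.16 to 3.84 and a median of 2.76. Of the 101 gene-rich bins with at least 20 clusters, it was higher in 97, with a median ratio of 1.44. The highest gene-rich ratio, 3.52, was in the bin at chr2:3000001-4000000, which lies between gene-poor bins of chromosome 2. The lowest, 0.857, was in the bin at chr1:28000001-29000000, toward the end of chromosome 1.

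**Figure D3:**
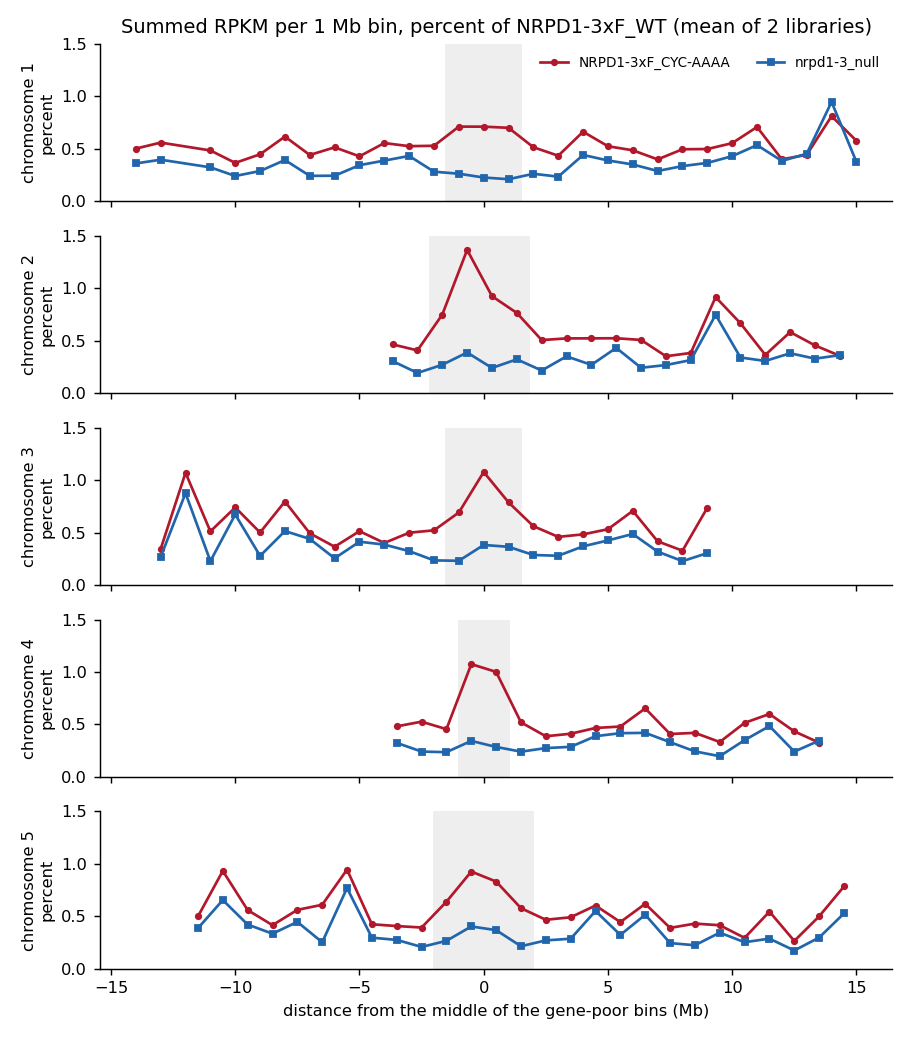
Summed RPKM of the Pol IV-dependent clusters per 1 Mb bin as percent of NRPD1-3xF WT (y axis, mean of 2 libraries) against the distance from the middle of the gene-poor bins (x axis, Mb), for each chromosome and bins of at least 20 clusters. Gray spans the first to the last gene-poor bin; in the gene-poor bins CYC-AAAA lies between 0.577% and 1.08% and the nrpd1-3 null between 0.211% and 0.404%, and the peak of 1.37% on chromosome 2 is the gene-rich bin between them.

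Several properties of the clusters moved with this division, and values within each are given. Gene-poor clusters were longer, with a median of 745 bp against 552 bp where the length was resolved, and had a median of 3.79 RPKM in Col-0 wild type against 16.6 RPKM. Their first 200 bases held a median of 67.8% unique 24-mers in the genome, against 89.8% in gene-rich clusters. When the clusters were ranked by Col-0 wild type level and cut into 10 classes of similar size, the ratio of the CYC-AAAA to the null sum was higher for gene-poor than for gene-rich clusters in each class. It was 3.22 against 2.15 in class 1, the lowest, 2.34 against 2.28 in class 3, where the gap was smallest, and 2.27 against 1.38 in class 10. Among clusters in which every such 24-mer was unique, it was 2.46 against 1.44. It was 1.71 against 1.81, the other way, among the 534 clusters that held no unique 24-mer. In the 1,710 clusters that start in an annotated pseudogene, a class that holds many transposon relics in this annotation, the ratio was 2.60, compared with 1.47 in the 1,321 that start in a protein-coding gene and 1.71 in the 9,615 between genes.

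The share that remained was lower at the clusters with the highest wild-type level, whereas the level itself was higher there. From class 1 to class 10 the median level rose from 0.02 to 0.145 RPKM in CYC-AAAA and from 0 to 0.09 RPKM in the null. As percent of Col-0 wild type, CYC-AAAA kept 1.92% and 2.28% in class 1 and 0.182% and 0.166% in class 10. In classes 1 to 4 of the Col-0 wild type level, the CYC-AAAA libraries kept between 0.922% and 1.16% of NRPD1-3xF WT and the null libraries between 0.340% and 0.534%. In class 10, with a median of 101 RPKM in Col-0 wild type, CYC-AAAA kept 0.267% and 0.244% and the null 0.169% and 0.186%. The CYC-AAAA sum was 2.55 times the null sum in class 1 and 1.44 times in class 10. The CYC-AAAA and null libraries did not overlap in any of the 10 classes.

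**Figure D4:**
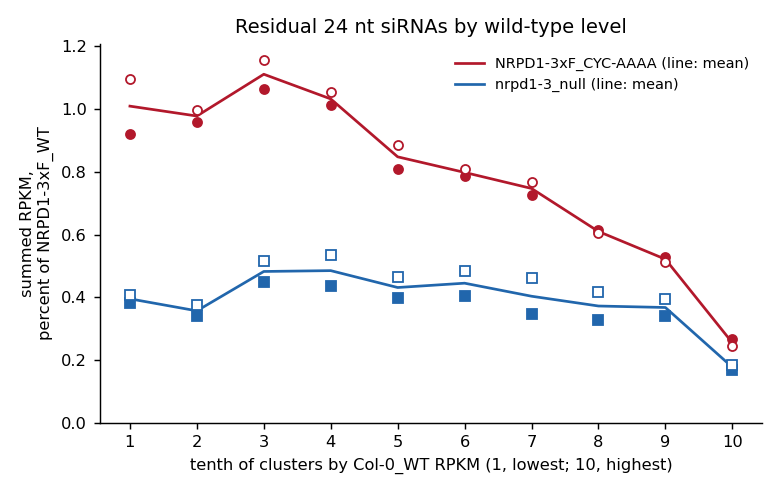
Summed RPKM of the Pol IV-dependent clusters as percent of NRPD1-3xF WT (y axis) in 10 classes of clusters by Col-0 wild type level (x axis, from the lowest to the highest), with filled points for replicate 1, open points for replicate 2 and a line for the mean. CYC-AAAA falls from 0.922% and 1.10% in class 1 to 0.267% and 0.244% in class 10, and lies above the nrpd1-3 null in each class.

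The cluster with the largest difference was merged_4_3766781 in a gene-poor bin of chromosome 4, 110 bp from YY1 (AT4G06634), which encodes a zinc finger transcription factor. Its level was 3.15 and 3.93 RPKM in CYC-AAAA and 0.13 and 0.21 RPKM in the null, 20.8 times higher in CYC-AAAA. No CYC-AAAA library came near a null library there, and limma gave a log2(RPKM + 1) difference of 1.95 ± 0.13 (SE), with an adjusted p of 0.0615 that missed the threshold. The difference was called when clusters averaging under 1 RPKM were left out (limma adjusted p = 0.000523) and in a fit over all 12 libraries (0.00542). The level was 5.68 and 7.04 RPKM in AAA-YPMF, 0.58 and 0.30 RPKM in clsy quad and 177 and 158 RPKM in NRPD1-3xF WT, so that CYC-AAAA kept 2.11% of the level with intact NRPD1 and the null 0.101%.

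Of the other 9 among the 10 largest differences without overlap of libraries, 5 were in gene-poor bins, which hold 3,720 of the 12,812 Pol IV-dependent clusters, and 4 in gene-rich bins. merged_2_2148169 starts in AT2G05720 on chromosome 2 and had 41 and 46 reads in CYC-AAAA against 0 and 2 in the null (limma-voom adjusted p = 4.13e-05). merged_2_2602290, 452 bp from AT2G06550, had 1.70 and 1.93 RPKM in CYC-AAAA and 0.14 and 0.17 RPKM in the null (limma adjusted p = 0.0514). merged_2_5119561, 808 bp from NUB1 (AT2G12550), had 29 and 33 reads in CYC-AAAA and 0 and 6 in the null (limma-voom adjusted p = 0.00478). In each of these 3 clusters both AAA-YPMF libraries were higher than both CYC-AAAA libraries, with 2.48 and 2.73 RPKM, 3.70 and 4.51 RPKM, and 2.96 and 3.43 RPKM. The smallest limma-voom p was at merged_4_4207944 on chromosome 4, which had 62 and 74 reads in CYC-AAAA and 1 and 10 in the null (adjusted p = 1.35e-07). It lies between genes, with PCN, which encodes a WD40 repeat protein, the nearest at 2588 bp. Of the other clusters with small limma-voom p, 3 were in gene-poor bins. merged_2_2217089 in AT2G05812 had 45 and 75 reads in CYC-AAAA and 6 and 12 in the null (limma-voom adjusted p = 4.13e-05). merged_4_4547985 near AT4G07747 had 56 and 64 reads against 7 and 17 (0.000167), and merged_2_4965431 near AT2G05685 16 and 12 reads against 0 in both null libraries (0.000478). At merged_2_4965431 Col-0 wild type had 309 and 305 RPKM and CYC-AAAA 1.02 and 0.73 RPKM, so that little of the level remained even where the null had no read.

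The first 200 bases of the first 2 of these clusters are shown because these had the largest log2(RPKM + 1) differences, read from the plus strand of TAIR10.1 at chr4:3766781-3766980 and chr2:2148169-2148368. Within these 200 bases, all 24-mers sampled from merged_2_2148169 and 93.8% of those from merged_4_3766781 occur once in the genome, and where the reads fall in the clusters was not measured. The GC content is 18% in merged_4_3766781 and 38.5% in merged_2_2148169.
merged_4_3766781: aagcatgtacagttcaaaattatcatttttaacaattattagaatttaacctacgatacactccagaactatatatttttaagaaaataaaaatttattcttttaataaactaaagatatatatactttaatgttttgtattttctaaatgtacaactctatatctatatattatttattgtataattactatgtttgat
merged_2_2148169: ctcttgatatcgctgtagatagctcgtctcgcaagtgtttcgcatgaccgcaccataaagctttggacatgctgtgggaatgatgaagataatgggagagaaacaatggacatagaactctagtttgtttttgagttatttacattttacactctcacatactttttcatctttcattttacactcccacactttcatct

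Outside the gene-poor bins, merged_4_7943735 in AT4G02935 had 46 and 47 reads in CYC-AAAA and 7 and 9 in the null (limma-voom adjusted p = 0.000390), and merged_1_8869423, 134 bp from RBL10, a rhomboid-like protease gene, had 19 and 25 reads against 0 and 1 (0.000664). merged_2_3110884 near AT2G07470 had 62 and 45 reads in CYC-AAAA and 9 and 7 in the null (limma-voom adjusted p = 4.80e-05). merged_2_10356296, which starts in AT2G24340, had 96 and 113 reads against 16 and 32 (limma-voom adjusted p = 4.13e-05). It differed from the clusters above in that clsy quad, with 2.53 and 2.35 RPKM, was as high as CYC-AAAA with 2.53 and 2.82 RPKM, and that CYC-AAAA kept 71.2% of the NRPD1-3xF WT level. The remaining 3 of the 10 largest differences rested on few reads: merged_3_13525570, which is in a gene-poor bin, had 1 and 6 in CYC-AAAA, merged_5_5450179 near TIC40, a chloroplast import component, 2 and 4, and merged_2_19323625 near VGDH1, a pectin methylesterase of pollen, 6 and 10, with 0 in both null libraries at each. merged_2_19323625 was called by limma-voom (adjusted p = 0.00694), and the other two had too few reads to be tested on them.

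The 49 clusters called higher on the reads had a median of 0.8 RPKM in CYC-AAAA and 0.07 RPKM in the null, beside 0.285 and 0.145 RPKM over the 1,865 tested. The call used these same libraries, so the higher CYC-AAAA level and percentage and the lower null were set in advance. Both null libraries were at 0 at 14 of the 49, and at 57 of those tested. Such clusters reached 10 reads through CYC-AAAA alone. Of the 49, 23 (46.9%) were in gene-poor bins, compared with 354 (19.0%) of those tested. On chromosome 2 were 21 of the 49, and 402 of those tested. They were also longer, with a median of 1482 bp against 1108 bp, which gives more reads for the same RPKM. Their median level in CYC-AAAA was 3.20% of NRPD1-3xF WT, beside 1.179% over those tested. It was under 10% at 46 of the 49, and at 1,777 of the 1,865 tested. All 49 had a higher mean in AAA-YPMF than in the null, as did 1,603 of the 1,865 tested. The 49 were called against these same null libraries, so a low null there favors that result in advance. A higher mean in AAA-YPMF than in CYC-AAAA was found at 40 of the 49 and at 1,457 of those tested. Compared directly with AAA-YPMF on recovered reads, CYC-AAAA was called higher by limma-voom at 4 clusters (0.0962%) and lower at 107 (2.57%) of 4,159. Compared with clsy quad, it was called higher at 52 (2.32%) and lower at 18 (0.803%) of 2,241. These comparisons share the CYC-AAAA libraries with the one against the null.

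**Figure D5:**
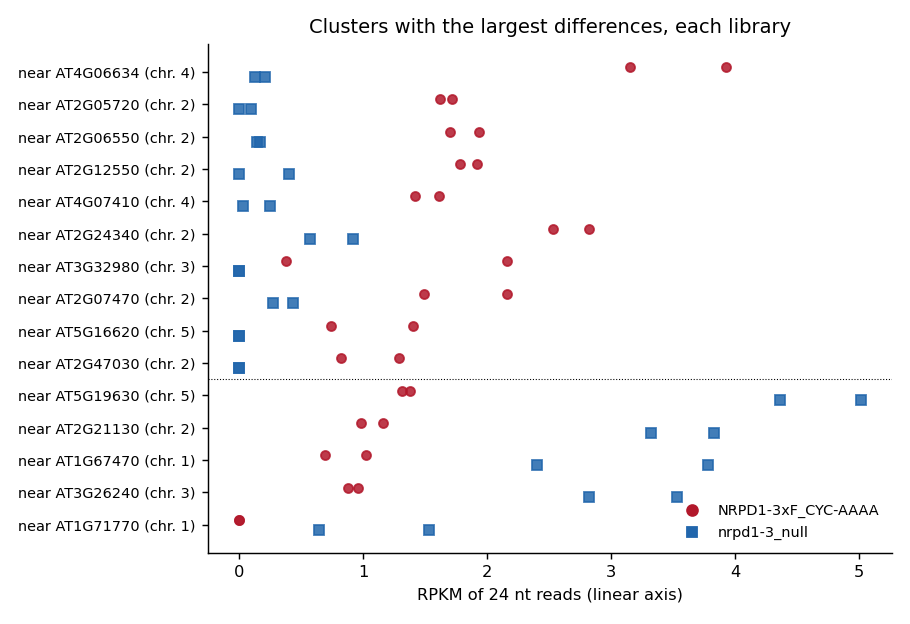
RPKM of 24 nt reads (x axis, linear) in each library of CYC-AAAA (circles) and the nrpd1-3 null (squares), for the 10 clusters with the largest positive and, below the dotted line, the 5 with the largest negative log2(RPKM + 1) difference among clusters whose libraries do not overlap, named by the nearest gene. In the top cluster CYC-AAAA has 3.15 and 3.93 RPKM and the null 0.13 and 0.21 RPKM. In the first cluster below the line CYC-AAAA has 1.38 and 1.31 RPKM and the null 4.36 and 5.02 RPKM.

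Fewer clusters went the other way, and those named here were all in gene-rich bins. Gene-rich bins hold 9,078 of the 12,812 Pol IV-dependent clusters. They also hold 464 of the 539 of these at which both CYC-AAAA libraries were below both null libraries. merged_5_6630548, 524 bp from AT5G19630, had 1.38 and 1.31 RPKM in CYC-AAAA and 4.36 and 5.02 RPKM in the null (limma log2 difference -1.28 ± 0.10 (SE), adjusted p = 0.0812). clsy quad had 3.14 and 3.50 RPKM there and AAA-YPMF 0.88 and 0.72 RPKM. merged_2_9056644, 163 bp from AT2G21130, had 25 and 31 reads in CYC-AAAA and 62 and 89 in the null, and was called lower by limma-voom (adjusted p = 6.10e-05). In clsy quad it had 2.21 RPKM in both libraries, in AAA-YPMF 0.62 and 0.80 RPKM, and in the null 3.32 and 3.83 RPKM. merged_3_9608008 near AT3G26240 followed the same order, with 0.96 and 0.88 RPKM in CYC-AAAA, 0.56 and 0.87 RPKM in AAA-YPMF, 1.99 and 1.78 RPKM in clsy quad and 2.82 and 3.53 RPKM in the null. At these 3 clusters clsy quad and the null were above both motif variants. merged_1_26993882, within PAB5 (AT1G71770), which encodes a poly(A)-binding protein, had 0 reads in both CYC-AAAA libraries and 3 and 9 in the null (limma-voom adjusted p = 0.00590). merged_1_25274773 near AT1G67470 had 7 and 5 reads against 19 and 15 (limma-voom adjusted p = 0.0193) and did not pass the threshold. The order above was not found at merged_1_26993882 and merged_1_25274773, where clsy quad and AAA-YPMF overlapped. clsy quad had 0.71 and 0.14 RPKM at the former and 1.67 and 2.15 RPKM at the latter. AAA-YPMF had 0.58 and 0.41 RPKM, and 1.76 and 0.65 RPKM.

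The highest level in both genotypes was at a microRNA locus. merged_1_24884060 starts 6 bp from MIR163, whose microRNA is 24 nt long and targets methyltransferase genes, and had 16510 and 16188 RPKM in CYC-AAAA and 14422 and 16969 RPKM in the null. The null libraries enclose those of CYC-AAAA, and limma gave a difference of 0.06 ± 0.11 (SE), adjusted p = 0.893. merged_4_13295908 in the non-coding RNA gene AT4G26255 had 1975 and 2221 RPKM in CYC-AAAA and 1456 and 2730 RPKM in the null, again with overlapping libraries. merged_1_24720965 in AT1G09805 had 879 and 964 RPKM against 853 and 1012 RPKM, and merged_5_4479376 beside MIR848 600.5 and 556 RPKM against 646 and 639 RPKM. Their adjusted p from limma was between 0.583 and 1. At 2 clusters over microRNA genes, both CYC-AAAA libraries were above both null libraries. At merged_2_16588018, which overlaps MIR8121, the level was 1134 and 1502 RPKM in CYC-AAAA and 649 and 718 RPKM in the null, 1.93 times higher (limma adjusted p = 0.279; limma-voom adjusted p = 0.000997). It was 408 and 528 RPKM in AAA-YPMF, 211 and 239 RPKM in clsy quad and 87.1 and 91.7 RPKM in Col-0 wild type, with CYC-AAAA the highest of these 5 genotypes. The limma-voom difference of 0.93 on the log2 scale was below the 2-fold limit. At merged_4_11370268, which overlaps MIR1887, the level was 640 and 815 RPKM in CYC-AAAA and 353 and 524 RPKM in the null (limma-voom adjusted p = 0.0151, above the threshold).

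The mature microRNAs of these loci, given in DNA letters from the RefSeq annotation of TAIR10.1 with the seed (bases 2 to 8) in capitals, show that only some are 24 nt long, the length counted here. No seed is shared among the 4.
ath-miR163: tTGAAGAGgacttggaacttcgat
ath-miR8121: aAAGTATAatggtttagtggtttg
ath-miR848: tGACATGGgactgcctaagcta
ath-miR1887: tACTAAGTagagtctaagaga
These lie at chr1:24884359-24884382 (plus strand), chr2:16588077-16588100 (minus), chr5:4479448-4479469 (minus) and chr4:11370301-11370321 (plus). In all, 20 clusters had a start no more than 100 bp away from a microRNA gene of the annotation. Their median log2(RPKM + 1) difference was 0.06, beside 0.04 over all clusters. Both CYC-AAAA libraries were above both null libraries at 7 of the 20 (35.0%) and below at 4 (20.0%), beside 27.7% and 4.27% over all clusters. Of the others, merged_5_15891592 over MIR869 had 21.6 and 19.3 RPKM in CYC-AAAA and 11.4 and 15.3 RPKM in the null, without overlap. merged_1_25278928 beside MIR839 had 73.8 and 85.5 RPKM against 61.3 and 75.8 RPKM, and merged_4_18087176 beside MIR8178 had 40.8 and 49.7 RPKM against 37.2 and 49.2 RPKM, both with overlap.

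merged_3_16157970, 435 bp from AT3G44570, was set aside from the sums because it alone raised them. It had 259 and 281 RPKM in CYC-AAAA, 227 and 269 RPKM in the null, 199 and 204 RPKM in AAA-YPMF, 112 RPKM in both NRPD1-3xF WT libraries, 39.7 and 38.7 RPKM in Col-0 wild type and 2.21 RPKM in both clsy quad libraries. CYC-AAAA and the null did not differ there beyond their spread (limma adjusted p = 0.698). At the other high clusters both CYC-AAAA libraries were above both null libraries, without passing limma's test. merged_5_22322586 near AT5G55010 had 438 and 444 RPKM in CYC-AAAA and 286 and 324 RPKM in the null (adjusted p = 0.275). merged_5_17230109 in AT5G42950 had 281 and 299 RPKM against 242 and 241 RPKM (adjusted p = 0.398). merged_3_17728477 in AT3G07855 had 160 and 183 RPKM against 116 and 159 RPKM (adjusted p = 0.583), and unlike the others it was higher in Col-0 wild type, at 621 and 513 RPKM.

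Of the 5 clusters with the highest levels in Col-0 wild type, the highest was merged_1_24884060 beside MIR163, whose level was above that of Col-0 wild type in both genotypes, and the other 4 were nearly emptied in both. merged_3_15680917 near AT3G06675 had 1380 and 1292 RPKM in Col-0 wild type, 0.57 and 0.35 RPKM in CYC-AAAA and 0.38 and 0.35 RPKM in the null. merged_4_13902361, 361 bp from PYL10, an abscisic acid receptor, had 39 and 25 reads in CYC-AAAA and 10 and 5 in the null (limma-voom adjusted p = 0.00696). merged_4_2558980 had 0.65 and 0.74 RPKM against 0.22 and 0.19 RPKM, and merged_4_5438259 in AT4G08545 0.28 and 0.16 RPKM against 0.10 RPKM in both null libraries. AAA-YPMF was above CYC-AAAA in both libraries at each of these 4 emptied clusters, with 5.51 and 4.59 RPKM at merged_3_15680917. This was not particular to AAA-YPMF. clsy quad was also above CYC-AAAA at merged_3_15680917 (3.00 and 2.64 RPKM) and merged_4_2558980 (1.79 and 1.60 RPKM). At merged_4_13902361 it had 2.95 and 2.30 RPKM against 0.98 and 0.60 RPKM. Over class 10, clsy quad kept 0.277% and 0.396% of NRPD1-3xF WT, above both CYC-AAAA libraries.

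Of the listed loci long used to follow RNA-directed DNA methylation, SDC and FWA had a cluster nearby, and neither cluster was called. Near SDC (AT2G17690), an F-box gene silenced by methylation of its promoter repeats, merged_2_7680791 had 22 and 27 reads in CYC-AAAA and 4 and 6 in the null (limma-voom adjusted p = 0.0131, above the threshold), 3.06% and 0.780% of the NRPD1-3xF WT level. clsy quad had 0.07 and 0.08 RPKM there, below both. Near FWA (AT4G25530), a homeodomain gene silenced by the same pathway, merged_4_13038163 had 2 and 2 reads in CYC-AAAA and 4 and 0 in the null, too few to compare. Beside TAS1B, a source of trans-acting siRNAs that are made without Pol IV, merged_1_18547947 had 3.07 and 2.91 RPKM in CYC-AAAA and 2.78 and 2.89 RPKM in the null (limma adjusted p = 0.795), down from 61.3 and 62.1 RPKM in Col-0 wild type. The second cluster there, merged_1_18551545, had 3 and 0 reads in CYC-AAAA and 0 in both null libraries. No cluster started within 2 kb of the other listed loci, TAS1A, TAS1C, TAS2, TAS3, AT3G25795 and ROS1 (DML1 in the annotation).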

How the data were processed

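Small RNAs of total flower RNA were sequenced with a kit that adds unique molecular identifiers. As deposited by the authors, each value is the RPKM of 24 nt reads in a cluster, with 2 decimals. Adapters were trimmed with cutadapt (version 1.18), reads were mapped to TAIR10 with ShortStack, kept if matching perfectly or with a single 3′ mismatch, and quantified with HOMER (version 4.10), scaled to all filtered reads. These versions come from the submitters' processing notes. Filtered reads were 19347938 and 20405818 in CYC-AAAA and 14199917 and 17675172 in the nrpd1-3 null, so 1 read in 1 kb is 0.0517, 0.0490, 0.0704 and 0.0566 RPKM. The 21 nt reads were 38.6% and 41.3% of them in CYC-AAAA and 39.1% and 43.3% in the null, but 16.5% to 18.8% in Col-0 wild type and NRPD1-3xF WT, so percentages of those genotypes depend on the scaling. All 12 value columns map to labelled samples, and 0 were left unused.

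The test was limma (version 3.58.1, R 4.3.3) with trend on log2(RPKM + 1) of the 4 libraries and all 12,939 clusters, called at an adjusted p (Benjamini-Hochberg) under 0.01 and a change of at least 2-fold. The authors' count test could not be repeated, since the deposited RPKM are not counts. Whole reads were recovered with the smallest cluster length that gave whole numbers in all 12 libraries, where such a fit was unlikely by chance. They were tested with limma-voom where 10 or more reads were present. That test, the 12,812 Pol IV-dependent clusters and the comparison by region were chosen after seeing the data. Both tests were run on simulated data.

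Clusters were named by rule: the 10 largest positive and 5 largest negative differences without overlap of libraries, the smallest p, the 10 highest means, the 5 highest in Col-0 wild type, those called by an alternative fit (up to 10 by p), and those near microRNA genes or listed loci. The comparison, lists and rules were chosen with earlier results of these data known. A cluster's name gives its start, and whether that is counted from 0 or 1 is not known, so printed sequences may be displaced by 1 base. The files give no cluster end, and genes and features refer to the start. Whether the replicates are separate plants is not given beyond the word biological, and p-values measure only the spread between these libraries. Replicate numbers did not pair the libraries (r = 0.03 over 5,301 clusters), and the labels give no batch.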

Additional observations from a re-analysis of the deposited data

How the results depend on the processing

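Over the tests on RPKM, 0 clusters were called in either direction with a pseudocount of 0.1, without the trend, after rescaling to 21 nt or to other than 24 nt reads, or without a limit on the fold change. Clusters called higher numbered 1 with a mean of at least 1 RPKM, 4 in a fit over all 12 libraries, 1 at an adjusted p under 0.05, 49 on recovered reads, and 0 to 17 without 1 library, the 13 and 17 being without CYC-AAAA replicate 1 and 2. Those called lower numbered 3, 2, 0, 2 and 0 in that order. On recovered reads, 105 were called higher with at least 1 read, and 1 lower with at least 30. Leaving out 1 library gave 2 to 139 higher and 0 to 12 lower, in a fit where the lone sample is assumed to vary like the other genotype. Both CYC-AAAA libraries were above both null libraries at 48 of the clusters that averaged 1 RPKM or more and at 1,293 with a gap of at least 0.1 RPKM, and below at 15 and 173. The median difference was 0.29 with a pseudocount of 0.1 and 0.15 with a mean of at least 1 RPKM. The sum over all clusters rose from 111% to 177% of the null once the top 1% of clusters by mean were dropped, and the gene-poor sum fell from 274% to 246% with unique 24-mers only. The cause of these changes was not tested, other than that filters leave fewer clusters.

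With the replicate block, 0 clusters were called in either direction, and 827 were higher and 57 lower at an unadjusted p under 0.05. It changed no call. For the 41 clusters named, 422 of 462 alternative values kept direction and side of the threshold, 29 newly passed it, 0 lost it and 11 changed sign, all at clusters that were not called. Without 1 library, the log2 difference ranged from -0.054 to 0.18 at merged_1_24884060, from -0.38 to 0.52 at merged_4_13295908, from -0.14 to 0.11 at merged_1_24720965 (0.028 after rescaling to 21 nt reads), from -0.016 to 0.20 at merged_3_15680917, from -0.12 to 0.27 at merged_4_18087176 and from -0.32 to 0.21 at merged_4_13038163 (0.13 with a pseudocount of 0.1). Depth limits the comparison, since most clusters hold few reads in either genotype.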
